A study of Mus musculus with 23 samples.

Results

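Iron storage and thiol redox transcripts were examined in type 1 conventional dendritic cells (cDC1) taken from mouse melanomas whose cancer cells lacked or carried the cyclooxygenase genes of prostaglandin synthesis. The set comprised 5 of the 13572 gene rows of the count table. They were the ferritin subunits Fth1 and Ftl1, the metallothionein Mt1, the thioredoxin Txn1 and the peroxiredoxin Prdx1. The genes were chosen by name from earlier results of the same group comparison, so their differences between the groups are given as a description with no test. All 5 passed the filter on low counts, as did 2076 genes in all.

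PGE2-deficient tumours grew from Ptgs1/Ptgs2 knockout BRAFV600E melanoma cells, which lack both cyclooxygenases. Control tumours grew from control BRAFV600E cells, which make prostaglandin E2 (PGE2). Host mice were wild-type C57BL/6 in both groups and therefore kept their own cyclooxygenase genes, and no PGE2 level is among the data. The growth protocol also mentions hosts altered in the PGE2 receptor genes Ptger2 and Ptger4, but no sample title places a library there. At day 6 after subcutaneous injection, living leukocytes (CD45+) that carried MHC-II, CD11c and CD103 and lacked CD11b were sorted from digested tumours. Pools of 10 cells were sequenced by Smart-seq3, which copies whole transcripts from a few cells. Each group had 4 mice, called PGE2-deficient or control mice after their tumours. There were 11 pools from PGE2-deficient tumours and 12 from control tumours, with 2 pools from PGE2-deficient mouse 2 and 3 from every other mouse.

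Pools held 25571 to 98554 counts and mice 101017 to 230478. The 5 genes had 4594 counts in all, or 0.399% of the table. All 16 cDC1 markers were detected in both groups, at a summed level of 6170 to 8281 CPM in PGE2-deficient mice against 3279 to 5598 CPM in control mice (CPM of marker sums, counts per 1000000 counts of all rows). Sums of the mature dendritic cell list were 1718 to 5207 CPM in PGE2-deficient mice against 1086 to 2244 CPM in control mice. Of 13 macrophage markers, 9 were detected in PGE2-deficient mice (83.1 to 188 CPM) and 10 in control mice (61.8 to 922 CPM), led by Cd68 with 56 counts against Apoe with 100 counts. Mertk, Trem2 and Arg1 were at 0 in both groups. The plasmacytoid dendritic cell (pDC) list held 14 counts in PGE2-deficient mice against 147 in control mice, where Siglech had 42 and Ly6d 34. The T cell and NK cell list held 84 counts in PGE2-deficient mice, with Gzmb at 19 and Trbc2 at 18, against 15 in control mice. The cDC2 list held 157 counts in PGE2-deficient and 217 in control mice, the B cell list 41 and 21, the fibroblast and endothelial list 13 and 21, and the melanoma list 1 and 9, in the same order. Of 12 monocyte and neutrophil markers 9 were at 0 in both groups, and Plac8 held 674 of 842 counts in PGE2-deficient and 417 of 515 in control mice. All 8 erythroid markers were at 0 in every mouse.

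Ferritin is a hollow shell that stores iron. Its heavy chain, Fth1, oxidises ferrous iron, and its light chain, Ftl1, helps the mineral core to form. Both messengers carry an iron-responsive element near their start, a hairpin that iron regulatory proteins bind to block translation when iron is scarce, so that messenger and protein levels can part. Metallothioneins such as Mt1 are small cysteine-rich proteins that bind zinc and copper and are induced by the metal-sensing factor MTF1 through metal response elements. Thioredoxin (Txn1) reduces disulfides, among them those of peroxiredoxins such as Prdx1, which remove hydrogen peroxide. In other cell types the factor NRF2 raises ferritin, thioredoxin and peroxiredoxin transcripts together through antioxidant response elements. In dendritic cells, oxidant levels in the phagosome are known to bear on how antigen is processed for presentation to CD8 T cells.

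The iron-responsive elements are shown because both ferritin messengers matched this element and the other 3 genes did not. Capitals mark the bulged C and the 6-base loop, and the 30 bases are positions 86 to 115 of transcript Fth1-201 and 77 to 106 of Ftl1-201 (GENCODE M21).
Fth1: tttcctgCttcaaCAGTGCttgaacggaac
Ftl1: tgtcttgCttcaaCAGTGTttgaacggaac
The elements were identical at 27 of 30 bases, and the hairpin loops differed only in the last base marked. The core, a C, any 5 bases and then CAGTG, was searched in the first 250 bases and found once in each ferritin transcript and in none of Mt1-201, Txn1-201 and Prdx1-202. It occurred in 10.15% of 58447 protein-coding transcripts of that length or longer.

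Upstream sequence is shown for Mt1, which was lower, and Prdx1, which was higher, because each holds a match to the element named above for its class. The windows are from RefSeq promoters (GRCm38.p6), on the plus strand, cut where the gene begins in GENCODE. They are chr8:94178839-94179081 for Mt1 and chr4:116685349-116685543 for Prdx1.
Mt1: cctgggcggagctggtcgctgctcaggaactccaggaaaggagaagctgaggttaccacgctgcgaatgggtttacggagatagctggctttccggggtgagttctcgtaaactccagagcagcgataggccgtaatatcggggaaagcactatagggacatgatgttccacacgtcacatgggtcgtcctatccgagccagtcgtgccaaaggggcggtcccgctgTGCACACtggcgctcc
Prdx1: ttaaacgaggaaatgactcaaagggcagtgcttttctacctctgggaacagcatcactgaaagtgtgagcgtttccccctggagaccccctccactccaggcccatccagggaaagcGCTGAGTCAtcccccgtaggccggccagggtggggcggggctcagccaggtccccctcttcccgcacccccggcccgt
Capitals mark a metal response element core in Mt1 and an antioxidant response element core in Prdx1, read on the minus strand. Motifs were searched on both strands from 250 bases before to 50 after the RefSeq start. The metal response core (TGCACNC or TGCGCNC) had 3 matches for Mt1, the first base lying 23 bases before the start for one and at bases 3 and 21 after it for the others. It was found in none of the other 4 windows and in 25.7% of 32851 windows of 300 bases. The antioxidant core (TGACNNNGC) matched once for Prdx1, 133 bases before the start, and in none of the other 4 windows, against 12.39% of all windows. That match overlapped one of 2 AP-1 sites (TGANTCA) of the Prdx1 window, a motif held by 7.808% of windows. The windows of Fth1, Ftl1 and Txn1 matched none of these motifs, which says only that these letters are not in them.

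The comparison of the 2 tumour groups asks how cDC1 transcripts differ when the cancer cells cannot make prostaglandins. Ferritin heavy chain and metallothionein transcripts were lower in cDC1 of PGE2-deficient tumours, thioredoxin and peroxiredoxin transcripts were higher, and the fold change of the ferritin light chain was close to 0 with a wide error. Across the table, 103 of 2076 tested genes (4.96%) passed an adjusted p of 0.05 in the edgeR quasi-likelihood test on summed counts per mouse. Of these, 56 genes (2.7%) were higher and 47 (2.26%) lower in PGE2-deficient tumours. Among the 5 genes, Txn1 and Prdx1 were on the higher side, Fth1 and Mt1 on the lower side, and Ftl1 did not pass. The mice of the groups did not overlap for the same 4 genes, against 10.6% of tested genes (221). Because the genes were chosen from this contrast, nothing is read from these counts. In pools of 10 cells, fewer cells of a type and less RNA per cell cannot be told apart.

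**Figure D1:**
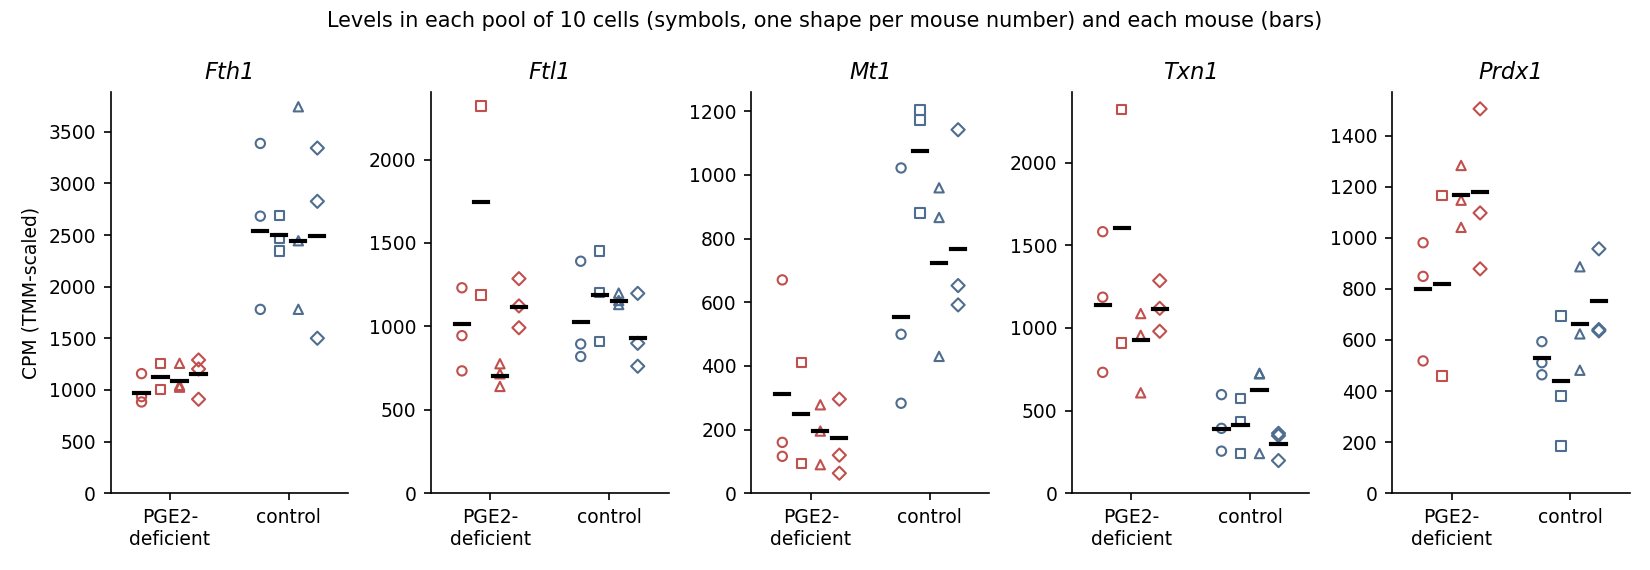
CPM (TMM-scaled) of the 5 genes in each pool of 10 cells (open symbols, 1 shape per mouse number) and in each mouse (black bars), for PGE2-deficient tumours at the left of each panel and control tumours at the right; each panel has its own linear axis from 0. All 11 PGE2-deficient pools lie below all 12 control pools for Fth1, and 10 of 11 lie above them for Txn1. For Ftl1, 7 of 11 lie within the control range, 3 below it and 1 above it.

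Fth1 (ENSMUSG00000024661, chr19:9980598-9985098, plus strand, GRCm38), the iron-oxidising chain of ferritin, had 975, 1127, 1087 and 1156 CPM in the 4 mice with PGE2-deficient tumours, against 2542, 2504, 2439 and 2493 CPM in the 4 mice with control tumours. For single genes, CPM are counts per 1000000 counts of the tested genes after TMM scaling. The groups were far apart and the mice within each were close together. Means were 1086 ± 79.5 CPM in PGE2-deficient mice and 2495 ± 42.6 CPM in control mice (SD, n = 4 each), a log2 fold change of −1.20 ± 0.13 (SE), or 2.30-fold lower. Its pools ranged over 883, 1044 and 1290 CPM (lowest, median, highest) in PGE2-deficient tumours, against 1500, 2576 and 3742 CPM in control tumours. Every PGE2-deficient pool was thus below the lowest control pool.

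The spread of Fth1 differed between levels of sampling. Between mice its coefficient of variation was 7.32% in PGE2-deficient tumours and 1.71% in control tumours, against medians over 726 genes with at least 230 counts of 19.7% in PGE2-deficient and 18.6% in control tumours. Of those genes, 44 varied less between PGE2-deficient mice and 3 varied less between control mice. Between the pools of a mouse the picture was another. Its index of dispersion, which is 1 when pools differ by counting error alone, was 0.929 in PGE2-deficient mice and 8.71 in control mice, against medians over the same 726 genes of 2.29 in PGE2-deficient and 2.06 in control mice. Pools from control tumours therefore differed widely from each other, while the CPM of the control mice were nearly equal. Those mice held 221, 291, 243 and 318 Fth1 counts, and the part of chance in their close CPM was not tested. Log2 Fth1 and the log2 total count of a pool had r = 0.02 over the 11 PGE2-deficient pools and −0.61 over the 12 control pools; the part of depth in the spread was not tested.

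Ftl1 (ENSMUSG00000050708, chr7:45457944-45459884, minus strand), the light chain of the same shell, had 1014, 1744, 704 and 1114 CPM in PGE2-deficient mice, against 1024, 1187, 1154 and 933 CPM in control mice. The control mice lay within the range of the PGE2-deficient mice, of which mouse 2 was the highest. Means were 1144 ± 436 CPM in PGE2-deficient mice and 1075 ± 118 CPM in control mice (SD, n = 4 each). The log2 fold change was 0.07 ± 0.21 (SE). Its sign turned with scaling by upper quartiles (−0.01) and without PGE2-deficient mouse 2 (−0.20). It also turned without pools holding 10 or more macrophage, pDC or T cell and NK cell marker counts (−0.16). With Cd68 left out of those markers, the log2 fold change was 0.22. Pools ranged over 640, 992 and 2321 CPM in PGE2-deficient tumours, against 761, 1143 and 1452 CPM in control tumours. All 12 control pools fell inside the PGE2-deficient range, while 3 PGE2-deficient pools lay below the control range and 1 above it. The ferritin chains thus differed in this contrast. Their count ratio within a library, Fth1 over Ftl1, was 0.962, 0.646, 1.54 and 1.04 in PGE2-deficient mice, against 2.48, 2.11, 2.11 and 2.67 in control mice, a mean difference of −1.22 on the log2 scale. The ratio does not depend on library scaling, is not corrected for transcript length and is used only to compare groups.

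Mt1 (ENSMUSG00000031765, chr8:94179082-94180327, plus strand), which buffers zinc and copper, had 312, 249, 194 and 173 CPM in PGE2-deficient mice, against 552, 1076, 723 and 768 CPM in control mice. No mouse of one group reached the other. Means were 232 ± 62.1 CPM in PGE2-deficient mice and 780 ± 218 CPM in control mice (SD, n = 4 each), a log2 fold change of −1.78 ± 0.25 (SE), or 3.43-fold lower. Pools ranged over 62.7, 160 and 670 CPM in PGE2-deficient tumours, against 282, 873 and 1203 CPM in control tumours. Of the 11 PGE2-deficient pools, 8 lay below the lowest control pool and 3 within the control range. The index of dispersion was 6.04 in PGE2-deficient mice and 4.12 in control mice, so Mt1 varied more between pools of a mouse than most genes in either group. The upper quartiles over the 726 genes were 3.66 in PGE2-deficient mice and 3.31 in control mice. The sister gene Mt2 was too rare to be tested. It had 2 counts over all PGE2-deficient pools and 19 over all control pools, a rate 10.7 times higher in control pools (exact 95% interval 2.57 to 94.5, for counting error only). A single control pool held 9 of the 19.

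Txn1 (ENSMUSG00000028367, chr4:57943373-57956411, minus strand), the cytosolic disulfide reductant, had 1140, 1601, 929 and 1114 CPM in PGE2-deficient mice, against 391, 413, 622 and 298 CPM in control mice. The lowest PGE2-deficient mouse was above the highest control mouse. Means were 1196 ± 286 CPM in PGE2-deficient mice and 431 ± 137 CPM in control mice (SD, n = 4 each), a log2 fold change of 1.47 ± 0.22 (SE), or 2.76-fold higher. Pools ranged over 607, 1087 and 2321 CPM in PGE2-deficient tumours, against 197, 377 and 725 CPM in control tumours, and 10 of 11 PGE2-deficient pools lay above the highest control pool. The highest value came from technical replicate 3 of PGE2-deficient mouse 2. The same pool was also the highest for Ftl1, with 96 counts of each gene, and the lowest of its group for Prdx1. Without that mouse the log2 fold change of Txn1 was 1.30.

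Prdx1 (ENSMUSG00000028691, chr4:116685544-116700822, plus strand), which uses thioredoxin to remove hydrogen peroxide, had 799, 819, 1169 and 1180 CPM in PGE2-deficient mice, against 529, 439, 662 and 753 CPM in control mice. The groups did not overlap, but the lowest PGE2-deficient mouse and the highest control mouse were near each other. Means were 992 ± 211 CPM in PGE2-deficient mice and 596 ± 139 CPM in control mice (SD, n = 4 each), a log2 fold change of 0.74 ± 0.20 (SE), or 1.67-fold higher. Pools ranged over 459, 1041 and 1505 CPM in PGE2-deficient tumours, against 185, 608 and 957 CPM in control tumours. Of the 11 PGE2-deficient pools, 7 lay above the highest control pool and 4 within the control range. Its log2 fold change was above 0 in all 21 other settings, at 0.60 to 1.41. The edgeR call counted above was not made in 10 of them. These were the fits without PGE2-deficient mouse 3 or 4 (0.64 in both cases), without control mouse 1, 2 or 3 (0.68, 0.60 and 0.79), with upper quartile scaling (0.68), with a minimum count of 5 (0.70), with technical replicates 2 and 3 alone (0.80), without marker-holding pools when Cd68 was not counted (1.18) and with copies added (0.68). All settings use the data that chose the gene, so these values describe the fits and support nothing further.

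**Figure D2:**
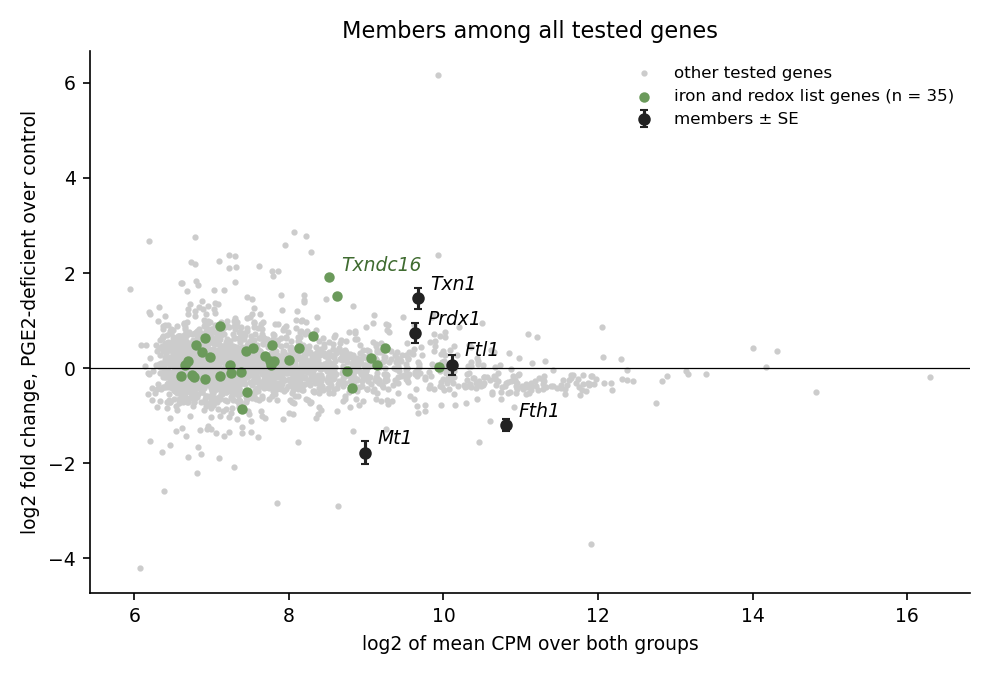
Log2 fold change of PGE2-deficient over control (vertical axis) against the log2 of the mean CPM over both groups (horizontal axis) for all 2076 tested genes; black points with SE bars are the 5 genes, green points 35 other tested genes of iron and redox handling, grey points the rest. Fth1 at −1.20 and Mt1 at −1.78 lie below 0 and Txn1 at 1.47 and Prdx1 at 0.74 above it, while most green points lie near 0 and Txndc16 stands at 1.91.

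Fth1 differed between the groups in the opposite direction to Txn1 and Prdx1, whereas the difference of Ftl1 was within its error. The count ratio of both ferritins to Txn1 and Prdx1, (Fth1 + Ftl1) over (Txn1 + Prdx1), was 1.03, 1.19, 0.854 and 0.989 in PGE2-deficient mice, against 3.88, 4.33, 2.80 and 3.26 in control mice. It was near 1 in every PGE2-deficient mouse. A value of 1 has no meaning of its own, since this ratio is not corrected for transcript length and leaves out near-identical copies. On the log2 scale it averaged 0.01 ± 0.19 in PGE2-deficient mice and 1.81 ± 0.28 in control mice (SD, n = 4 each), a difference of −1.81. Pools had ratios of 0.746, 1.0 and 1.46 (lowest, median, highest) in PGE2-deficient tumours, against 1.73, 3.92 and 5.95 in control tumours. All 11 PGE2-deficient pools were below every control pool. For Fth1 over Txn1 alone the difference of the mouse means was −2.70 on the log2 scale, and again all 11 pools were below the lowest control pool. The lower members differed less from each other. Fth1 over Mt1 differed by 0.54 on the log2 scale, with mice at 3.12 to 6.67 in PGE2-deficient tumours and 2.33 to 4.60 in control tumours. Txn1 over Prdx1 was 0.795 to 1.96 in PGE2-deficient mice and 0.396 to 0.941 in control mice. These ranges overlapped, and the difference of 0.75 on the log2 scale was close to the spread within a group (SD 0.59 in both). Without pools holding 10 or more macrophage, pDC or T cell and NK cell marker counts, the difference turned to −0.27. These pools include all those of PGE2-deficient mouse 2. With Cd68 left out of those markers, the difference was 0.29.

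**Figure D3:**
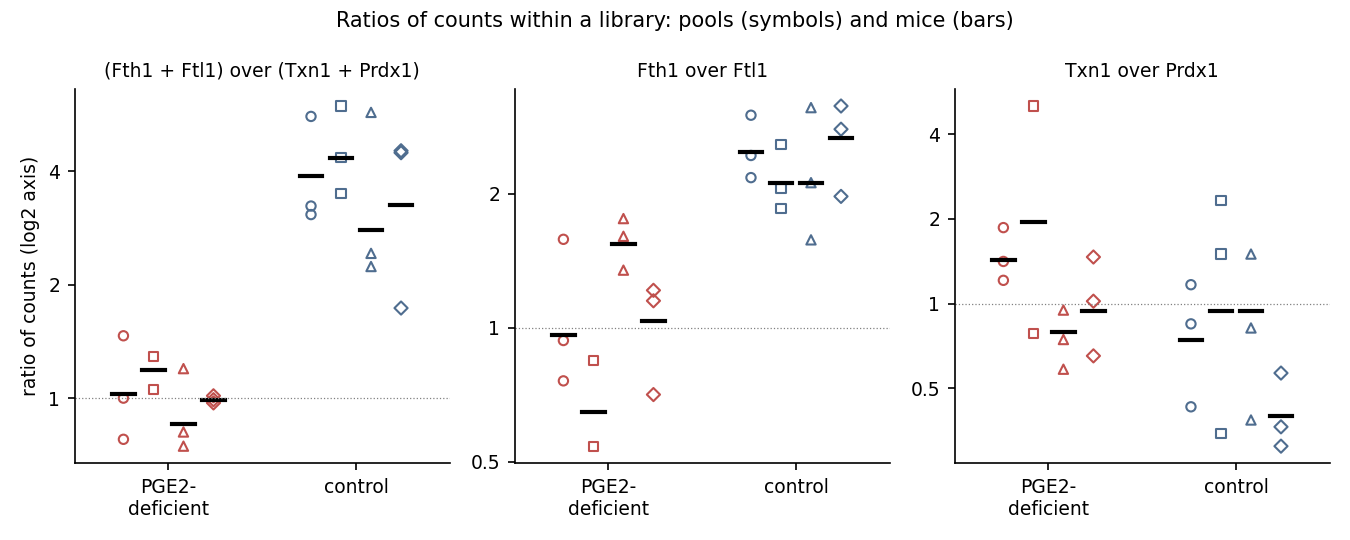
Count ratios within a library on a log2 axis, for pools (open symbols, 1 shape per mouse number) and mice (black bars), with PGE2-deficient tumours at the left of each panel and control tumours at the right; the dotted line marks a ratio of 1. The ferritin to redox ratio is 0.746 to 1.46 in PGE2-deficient pools and 1.73 to 5.95 in control pools, whereas Txn1 over Prdx1 overlaps between the groups.

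Within the groups, the 5 genes did not move as 2 blocks. Pearson correlations were taken over the 23 pools, on deviations of log2(CPM + 1) from the group mean, and are a description: pools of a mouse share the animal, and all values share the library's depth and scaling. Txn1 and Prdx1, both higher in PGE2-deficient tumours, had r = −0.29, with −0.41 over the 11 PGE2-deficient pools and −0.21 over the 12 control pools. Fth1 and Mt1, both lower, had r = 0.18. The strongest positive value was between Ftl1 and Txn1 (0.48, with 0.60 in PGE2-deficient and 0.40 in control pools). Taken as deviations from the mouse mean, this pair had 0.33, and Fth1 with Ftl1 was the strongest at 0.42. Technical replicate 3 of PGE2-deficient mouse 2 was the highest pool for Ftl1 and Txn1 and the lowest of its group for Prdx1. Its part in these values was not tested. Prdx1 ran opposite to Ftl1 (−0.46) and to Mt1 (−0.49) in both groups. The ferritin chains had r = 0.31, at 0.06 over PGE2-deficient pools and 0.62 over control pools, a difference that was not tested. Between pools of a PGE2-deficient mouse, Fth1 varied no more than counting error (index of dispersion 0.929). Any r with Fth1 over these pools therefore says little. Fth1 shifted between the groups in the opposite direction to Txn1 and Prdx1, but over the 23 pools its r with them was −0.07 and −0.08. Over PGE2-deficient pools r was 0.19 with Txn1 and 0.17 with Prdx1, against −0.17 and −0.19 over control pools. Counts were low, with 5 for Txn1 in the poorest control pool, and the part of counting error in r was not tested.

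**Figure D4:**
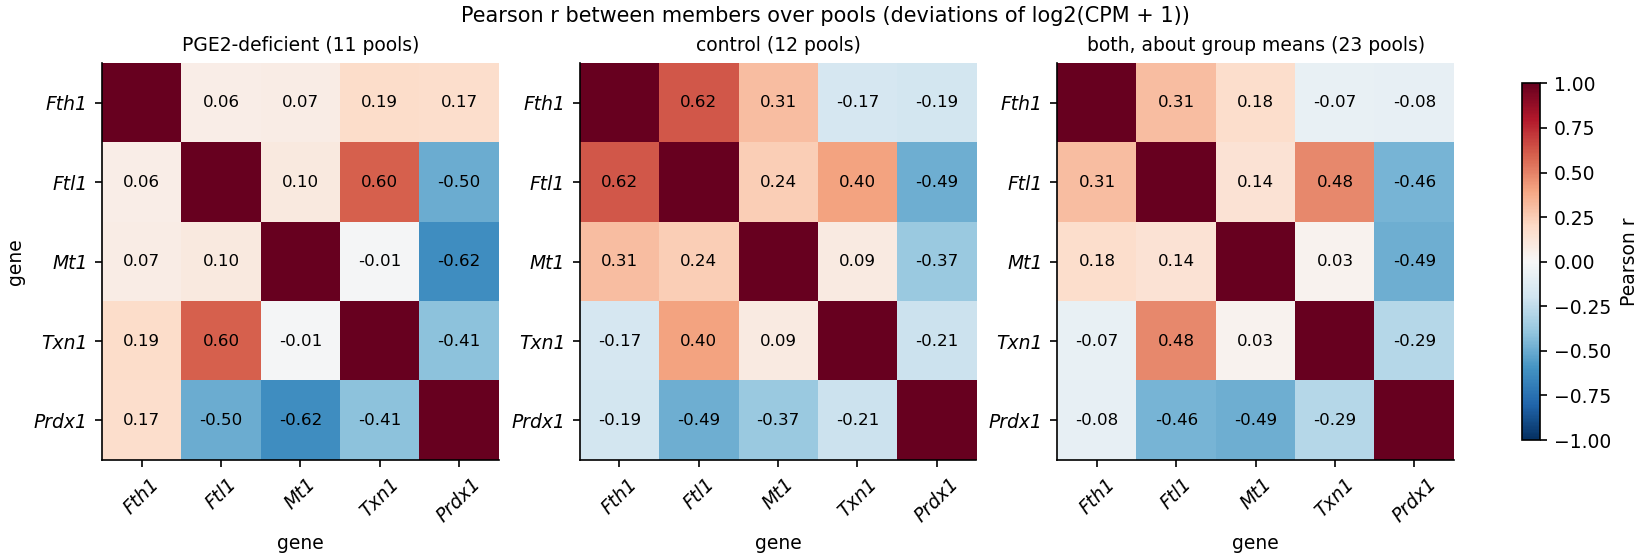
Pearson r between each pair of the 5 genes over 11 PGE2-deficient pools (left), 12 control pools (middle) and all 23 pools as deviations from their group means (right); red is positive and blue negative. Ftl1 with Txn1 is positive in both groups, and Prdx1 with Ftl1 and Mt1 is negative in both. Fth1 with Ftl1 is 0.62 in the middle and 0.06 at the left, where Fth1 varied little beyond counting error.

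Of 721 other genes with enough counts, those most like each gene over the 23 pools were named by the same measure. Fth1 was closest to Oaz1 (r = 0.66), Lrrc58 (0.64) and H2afz (0.56). For Oaz1 the value came from the control pools, at −0.29 over PGE2-deficient and 0.81 over control pools. Lrrc58 had 0.83 over PGE2-deficient and 0.62 over control pools. Between the PGE2-deficient pools of a mouse, Fth1 varied little beyond counting error. Ftl1 was closest to Cyba (0.67), a subunit of the phagocyte oxidase, to its own copy Ftl1-ps1 (0.64) and to Srgn (0.56). Srgn had 0.76 with Ftl1 over PGE2-deficient pools but 0.21 over control pools. The genes nearest to Mt1 were Il1b (0.57), Gm10076 (0.53) and Uqcrb (0.53), and those nearest to Txn1 were Tuba1c (0.57), Hist1h2ao (0.55) and Selplg (0.50). Prdx1 had the highest values, with Ccnd1 (0.75), Plac8 (0.73) and Ccl4 (0.69). These are the top values out of 721 and were not tested.

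Several rows of the table are near-identical copies of the 5 genes, with at least 90% identity to the member's transcript, and reads can be split between them and the parent. Ftl1 was the most affected. Its 5 copies in the table held 466 counts in PGE2-deficient and 390 in control pools, while Ftl1 itself held 524 in PGE2-deficient and 461 in control pools. Ftl2-ps had a log2 fold change of −0.16 (edgeR adjusted p = 0.817), Ftl1-ps1 of 0.44 (0.470) and Gm15590 of 0.17 (0.845). Gm12164 held 21 counts in PGE2-deficient and 28 in control pools, and Ftl1-ps2 held 7 in PGE2-deficient and 6 in control pools. With the copies added, the log2 fold change of Ftl1 was 0.10. The copies of Prdx1 were smaller, with 49 counts in PGE2-deficient and 30 in control pools for Gm7204 (0.43, edgeR adjusted p = 0.647) and 23 in PGE2-deficient and 18 in control pools for Gm21399. Adding them brought the log2 fold change of Prdx1 to 0.68, where the edgeR call was not made. Prdx1 was chosen from this contrast, so this is a description only. The copies of Fth1 and Txn1 held 4 and 3 counts in all, and none was found for Mt1. The level of Ftl1 is therefore uncertain, while the values of Fth1, Mt1 and Txn1 hardly depend on copies.

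**Figure D5:**
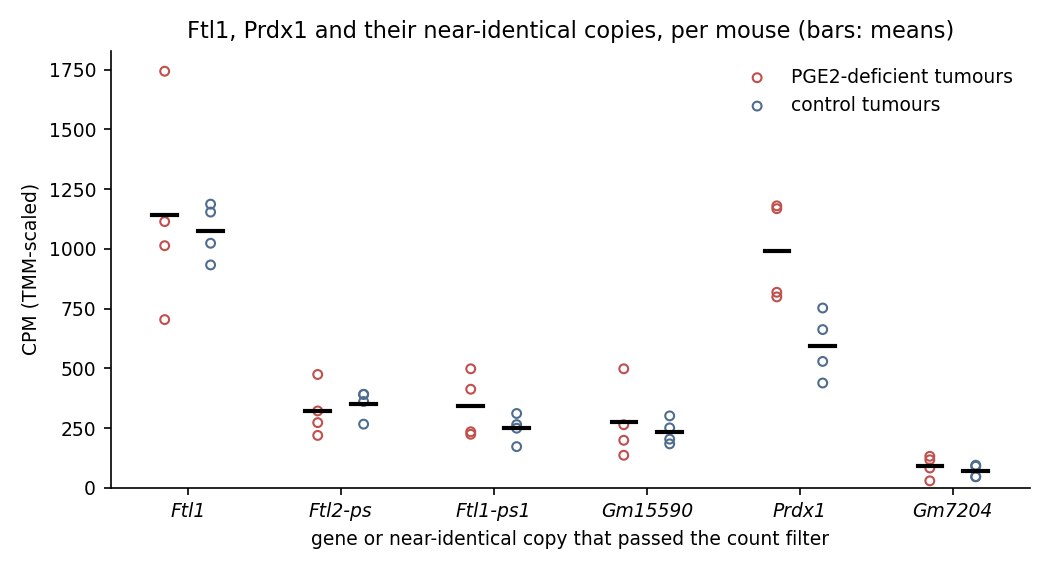
CPM per mouse (open circles) with group means (black bars) for Ftl1, Prdx1 and their near-identical copies that passed the count filter, PGE2-deficient left of control for each gene. No copy separates the groups, and the highest PGE2-deficient values of Ftl1 (1744), Ftl1-ps1 (498) and Gm15590 (498) are all from mouse 2.

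Most other genes of the iron and redox pathways were too rare to be tested. Lists covered iron handling, metallothionein and zinc, the thioredoxin system, peroxiredoxins, glutathione, NRF2 with its targets, and superoxide with its removal. They named 158 genes besides the 5. Of these, 130 were in the table and 35 had enough counts to be tested. In the edgeR test 1 of the 35 was higher and 0 were lower, against 2.7% and 2.26% of all tested genes, which is near that background. An unadjusted p under 0.05 was found for 5 of the 35, against 389 of all 2076 tested genes. DESeq2 also called 1 higher and 0 lower. The median log2 fold change of the 35 was 0.16, with 24 above 0 and 11 below, against 0.01 over all tested genes.

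The gene that passed was Txndc16, a thioredoxin domain protein of the endoplasmic reticulum. It had 487, 1008, 648 and 182 CPM in PGE2-deficient mice, against 196, 155, 110 and 149 CPM in control mice. PGE2-deficient mouse 4 lay within the control range. The log2 fold change was 1.91 ± 0.38 (SE; edgeR adjusted p = 0.00469, 6.66e-09 to 0.0801 over the other settings). Txndc16 did not pass without the pools that held 10 or more macrophage, pDC or T cell and NK cell marker counts. The log2 fold change was then 1.61 (edgeR adjusted p = 0.0801) and, with Cd68 left out of the markers, 2.04 (adjusted p = 0.0737). Txndc17, a thioredoxin-like protein of the cytosol, had a log2 fold change of 1.51 (edgeR adjusted p = 0.0536), and 0.69 without PGE2-deficient mouse 2.

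In the remaining lists no tested gene passed. Iron handling had 3 tested genes, among them the ferritin iron chaperone Pcbp1 (0.16 on the log2 scale) and Hfe (0.16), a regulator of iron uptake. Of the other peroxiredoxins, Prdx2 was at 0.48 and Prdx5 at 0.06. The 5 glutathione genes included Gpx4, which removes lipid peroxides (−0.85, edgeR adjusted p = 0.173), and the amino acid transporter chain Slc3a2 (−0.23). Of 4 genes of the NRF2 list, the autophagy receptor Sqstm1 was at 0.90 (edgeR adjusted p = 0.112) and Nfe2l2, which encodes NRF2, at −0.51 (adjusted p = 0.356). The 12 genes listed for superoxide and its removal, among them the oxidase subunit Cyba (−0.41), ran between −0.41 and 0.68. The selenoproteins Selenow and Selenot were at 0.68 and 0.64. None of the metallothionein and zinc genes had enough counts. The NRF2 target Hmox1, which frees iron from heme, had 1 count in PGE2-deficient and 2 in control pools, too few to compare. The cystine transporter Slc7a11 had 14 counts in PGE2-deficient and 16 in control pools, a rate 1.28 times higher in control pools (exact 95% interval 0.587 to 2.84, for counting error only).

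The differences of Fth1 and Txn1 were about as large without pools rich in macrophage, pDC or T cell and NK cell markers. Markers of cDC2, monocytes and other cells were not used to leave out pools. Pools that stayed could hold them, as with 32 cDC2 marker counts in technical replicate 3 of control mouse 4. Technical replicate 2 of PGE2-deficient mouse 1 held 23. Leaving out 6 PGE2-deficient and 7 control pools with 10 or more macrophage, pDC or T cell and NK cell marker counts removed PGE2-deficient mouse 2 and kept all 4 control mice. Fth1 then had a log2 fold change of −1.26 and Txn1 of 1.24, while Mt1 moved to −3.08 and Prdx1 to 1.41. The ferritin to redox ratio differed by −2.19 on the log2 scale. Whether the higher sums of cDC1 and mature dendritic cell markers in PGE2-deficient tumours play a part in these differences was not tested.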

How the data were processed

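RNA was measured by Smart-seq3 in 23 pools of 10 sorted cells. The authors deposited 1 table of raw counts, whole numbers per gene and library. The submitters' processing notes name STAR 2.5.4b and the build GRCm38 (mm10). The counting program, strand setting, any gene filter and whether reads or molecular identifiers were counted are not stated in the labels. Levels are shares of a library, not absolute amounts. Of 13572 rows, 261 held no count, and 16 symbols turned into dates were replaced through their identifiers (13556 found in GENCODE M21).

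Pools of a mouse, technical replicates per the labels, were summed, giving 4 mice against 4. Genes passing filterByExpr (minimum count 10) numbered 2076 and held 80.63% of all counts. Testing used edgeR 4.0.16 (quasi-likelihood F-test, TMM, two-sided, Benjamini-Hochberg over all tested genes, threshold 0.05), with a common biological coefficient of variation of 21.85%. SE was the fold change divided by the square root of F. CPM used tested-gene totals and the TMM factor of the mouse. The index of dispersion compared pool counts of a mouse with those expected from pool totals. Copies were found with BLAST 2.17.0 (at least 90% identity over 200 bases or 50% of the member's transcript, whichever was shorter). Promoters came from RefSeq (GRCm38.p6, all 5 genes matched) and transcripts from GENCODE M21. R 4.3.3, Python 3.11.15 and, as an alternative test, DESeq2 1.42.0 were used. The edgeR step was tested on simulated data.

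The members, the pathway lists and the alternatives were chosen with earlier results of these data known. Genes named were the 5 members, up to 6 called genes of each pathway list (or the 2 with the smallest p), the 3 most alike genes per member, copies with 10 or more counts and the 2 most abundant markers of another cell type. Mt2, Hmox1, Slc7a11 and Txndc17 were named after their values were seen. Removing marker-holding pools with Cd68 not counted was also added after seeing the data. Intervals cover counting error only. If the counts are amplified reads rather than molecular identifiers, they are not independent molecules.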

Additional observations from a re-analysis of the deposited data

How the results depend on the processing

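Over 21 alternative settings the log2 fold changes ran from −1.27 to −1.11 for Fth1, −3.08 to −1.52 for Mt1 and 1.24 to 1.69 for Txn1, a description since the genes were chosen on this contrast. Fth1 was −1.27 under upper quartile scaling and −1.11 under total count scaling. Without marker-holding pools Mt1 was −3.08 and Prdx1 1.41, and with Cd68 not counted −2.37 and 1.18, where Prdx1 was not called. The ferritin to redox ratio was −1.56 with copies added and −2.19 without marker-holding pools. Txn1 over Prdx1 turned to −0.27 without those pools (PGE2-deficient mouse 2 left out). With Cd68 not counted, the ferritin to redox ratio was −2.01 and Txn1 over Prdx1 0.29. The cause was not tested.

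Over all genes, 56 higher and 47 lower became 45 and 67 under upper quartile scaling and 70 and 24 under total count scaling, which shifted the median gene by −0.06 and 0.09. Without a count filter they were 110 and 84, with technical replicates 2 and 3 alone 32 and 19, without marker-holding pools 11 and 8, and with Cd68 not counted 6 and 7, where fewer genes and pools were tested. Leaving out each mouse gave 31 to 67 higher and 23 to 45 lower. Of pathway list genes, 2 were higher (Txndc16 and Txndc17) under total count scaling, a minimum count of 5, no filter and without mitochondrial and ribosomal RNA rows, and 0 in both settings without marker-holding pools. Cybb and Mt2 (2 genes) were lower without a filter. Leaving out each mouse gave 1 to 2 higher and 0 to 1 lower (Cybb, without control mouse 1).

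Mouse numbers recur in both groups, but same-numbered mice had deviations correlated by −0.0893 to 0.1, and 1 of 4 was closest to its own number. With the mouse number as a block, 45 genes were higher and 28 lower, with no change of call among the 5 members. Depth limits the pathway lists, since 35 of their 130 genes in the table had enough counts.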
